A study of Mus musculus with 4 samples.

Results

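The genes described here are 37 genes of the extracellular matrix, the network of secreted proteins around cells. They were chosen by symbol from a fixed list, and all 37 were found once each among the 32285 genes of the deposited matrices. By known function they fall into 7 classes. The fibrillar collagens are Col1a1, Col1a2, Col3a1, Col5a1 and Col5a2. Collagens VI, VIII and XII are given by Col6a1, Col6a2, Col6a3, Col8a1 and Col12a1, and the basement membrane class by Col4a1, Col4a2, Col18a1, Lamb2 and Lamc1. The small leucine-rich proteoglycans are Dcn, Lum, Fmod, Ogn, Kera, Prelp and Bgn. The glycoproteins and microfibril proteins are Fn1, Fbln1, Fbn1, Sned1, Cilp, Vtn and Mgp. Sparc, Thbs4, Igfbp5 and Igfbp7 form the matricellular and IGF-binding class, and Timp1, Timp2, Timp3 and Mmp2 the protease and inhibitor class.

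The samples were 4 Visium capture frames of fresh-frozen posterior eyes of C57BL/6J mice. A capture frame is a slide area whose barcoded spots each capture RNA from a small patch of tissue, counted as unique molecular identifiers (UMIs). The labels give all 4 frames one treatment, Naive+AAV2/2. The series as a whole delivered Wif1 by adeno-associated virus, with one vector that also carries GFP (CMV-Wif1-HA-IRES-GFP) and one that does not (CMV-Wif1-HA). Its control vector was CMV-IRES-GFP, and it names the groups Ctrl, WIF1-2w and WIF1-4w. CMV is a viral promoter that is active in many cell types. No label used here ties a frame or a spot to one of these groups or gives the age of the animals, so conditions were not compared. The titles number the frames as biological replicates without naming animals, so p-values rest only on spread between frames, which may be technical. The tests draw each gene's spread toward that of other genes. A p-value can therefore be small where the frames of that gene disagree. The comparisons made were between kinds of spots on the same frames.

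Extracellular matrix differs in kind from tissue to tissue. Fibrous tissue such as the sclera is built on fibrils of collagens I, III and V, whose assembly is tuned by small leucine-rich proteoglycans. Basement membranes, the sheets under epithelia and around vessels, muscle fibres and glia, are networks of collagen IV and laminins, and the pigment epithelium rests on one as part of Bruch's membrane. Matricellular proteins act on cells and growth factors more than they bear load, and TIMP proteins inhibit the metalloproteinases that degrade matrix.

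Promoter windows from RefSeq (GRCm38.p6, the mm10 build) matched 28 of the 37 genes. The 150 bases before the annotated start are shown for 4 genes whose levels differed in kind between spots. Pooled levels were highest in fibrous spots for the collagens Col1a2 and Col3a1, in pigment epithelium spots for Timp3 and in photoreceptor spots for Vtn. Capitals mark letters that match a searched motif on either strand. The windows lie at chr6:4505468-4505617, chr1:45311388-45311537, chr10:86300262-86300411 and chr11:78498970-78499119 in this order, all on the plus strand.
Col1a2: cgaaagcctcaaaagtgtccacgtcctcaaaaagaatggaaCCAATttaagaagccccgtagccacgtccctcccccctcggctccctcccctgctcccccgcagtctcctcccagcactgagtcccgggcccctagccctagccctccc
Col3a1: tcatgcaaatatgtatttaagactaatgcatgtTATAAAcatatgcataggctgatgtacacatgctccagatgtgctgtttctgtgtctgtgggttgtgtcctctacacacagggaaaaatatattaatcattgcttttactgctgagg
Timp3: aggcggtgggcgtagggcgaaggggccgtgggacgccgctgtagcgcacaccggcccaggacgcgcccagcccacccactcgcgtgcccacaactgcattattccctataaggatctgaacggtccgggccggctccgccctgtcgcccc
Vtn: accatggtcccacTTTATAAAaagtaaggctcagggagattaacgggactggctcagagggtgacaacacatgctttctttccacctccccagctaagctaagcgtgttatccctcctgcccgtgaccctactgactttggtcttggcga

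Each motif was searched on both strands over the 250 bases before each start. TATAAA, read on the other strand as TTTATA and overlapping it in Vtn, was present in 12.4% of all 32851 windows and in 3 of the 28 matched matrix genes (10.7%), Col3a1, Ogn and Vtn. The box CCAAT, read on the other strand as ATTGG, was present in 33.8% of all windows and in 8 of the 28 (28.6%), which were Col18a1, Col1a2, Col4a1, Col4a2, Kera, Prelp, Timp1 and Timp2. The motif TAATCC, read on the other strand as GGATTA, was present in 6.25% of all windows and in 1 of the 28 (3.57%), Lamb2. These shares are a description of letters in the windows and were not set against the expression values.

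The frames held 1056 to 1243 spots over tissue each, 4603 in all, with 674029 to 1066633 UMIs per frame and a median of 430 to 630.5 UMIs per spot. The files share a fixed set of spot barcodes, and 1271 of the 2458 distinct barcodes occurred in 2 or more frames, as positions and not as shared cells. Spots were put into regions by enrichment of marker genes that exclude all 37 matrix genes (at least 3 marker UMIs and an enrichment z of at least 3), and 38.2% of spots entered no region. Fibrous, pigment epithelium, retina, myelin, muscle and surface epithelium lists came first, and the most enriched of them named the spot. Melanosome, vascular, immune, blood, Schwann cell and lens lists named only spots that passed none of these. Regions are named by those markers, and each spot can hold several cells. The 140 fibrous spots were led by Mfap5, Cytl1, Angptl7 and Aebp1 and the 398 pigment epithelium spots by Kcnj13, Lrat, Rgr and Rdh5. The fibrous list itself holds matrix-related genes outside the 37, among them Mfap4, Mfap5, Dpt, Pcolce and Aebp1. High levels of other matrix genes in fibrous spots are therefore not independent of how these spots were chosen. The neural retina comprised 949 photoreceptor spots (Gngt1, Prph2, Pde6a), 207 inner nuclear spots (among others Lhx4 and Pcp2) and 560 ganglion spots (Nefm, Pou4f2, Pou4f1). There were 114 myelin spots led by Opalin, Mobp and Mog, all on frames 2 to 4, 71 muscle spots led by Tnnt3, Myh1 and Myh4, and 177 melanosome spots led by Dct, Oca2 and Tyrp1. Spot positions were not joined to the counts, so a region is a class of spots and not an outlined anatomical structure.

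The 37 genes together gave 11582 UMIs, 0.329% of all UMIs. Their summed level was highest in fibrous spots, at 10969, 8914, 13634 and 12647 UMIs per 1000000 UMIs of the region (CPM) in frames 1 to 4, a mean of 11541 ± 2068 CPM (SD, n = 4). Pigment epithelium spots held 11705, 7219, 5689 and 5224 CPM, so frame 1 lay within the fibrous range and the other 3 frames below it. Neural retina spots held 1912 to 2143 CPM, below every frame of either outer region. In bulk patches of tissue, fewer cells of a type and less RNA per cell cannot be told apart.

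Within the retina, ganglion spots held the least matrix RNA, 1226 ± 130 CPM, and photoreceptor spots 2531 ± 167 CPM (SD, n = 4 each), with no overlap between frames. Inner nuclear spots ranged from 1797 CPM in frame 1 to 4848 CPM in frame 4. Myelin spots held 7240, 5605 and 5362 CPM in frames 2 to 4. Muscle spots held 11224, 5502, 5194 and 3716 CPM, with frame 1 standing above the others. Melanosome spots of frames 1 to 3 held 6846 ± 565 CPM (SD, n = 3).

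The classes were not spread over regions in the same way. Fibrillar collagens summed to 3584 ± 1143 CPM in fibrous spots, 1522 ± 891 in pigment epithelium spots and 394 ± 43.9 in neural retina (SD, n = 4). Frame 1 of the pigment epithelium, at 2765 CPM, lay above frame 2 of the fibrous spots, at 2236 CPM, so these frames overlapped. The small leucine-rich proteoglycans followed the same order at 1682 ± 249, 714 ± 449 and 184 ± 45.5 CPM, with no overlap between frames. For collagens VI, VIII and XII the fibrous and pigment epithelium sums were 624 ± 132 and 613 ± 358 CPM, with overlapping frames. The protease and inhibitor class had the opposite order, with 1508 ± 231 CPM in pigment epithelium spots and 968 ± 365 in fibrous spots, with overlapping frames. Myelin spots had the highest matricellular sum, 3224 ± 692 CPM (SD, n = 3), against 2625 ± 405 in fibrous spots, and these frames overlapped.

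**Figure D1:**
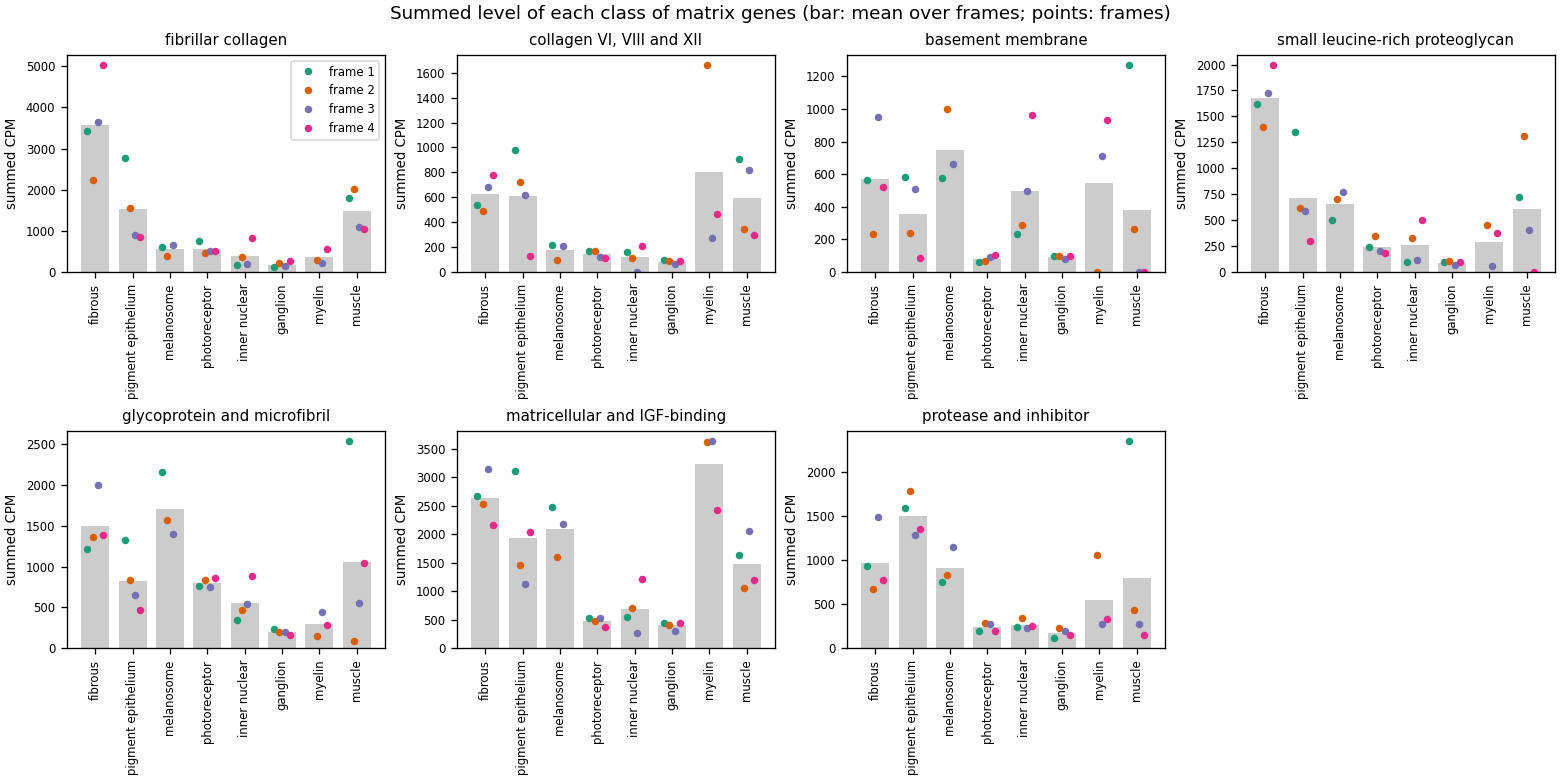
Summed level of each class of matrix genes in 8 kinds of spots, in CPM on linear axes that start at 0; bars are means over frames and points are single frames, drawn where a frame held at least 10 spots of that kind. Fibrillar collagens and small leucine-rich proteoglycans have their highest bars in fibrous spots, the protease and inhibitor class in pigment epithelium spots and the matricellular class in myelin spots.

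Ordered by level, 21 of the 37 genes had their highest pooled level in fibrous spots among 7 regions (melanosome spots aside), and for 8 of them the 95% Poisson interval lay apart from that of the next region. Myelin spots were highest for 7 genes, with 2 apart (Lamb2 and Sparc). Muscle spots were highest for 4 genes, none apart, where 31018 UMIs in all limited the count. Pigment epithelium spots were highest for Col8a1 and Timp3, both apart. Vtn was highest in photoreceptor spots, Col18a1 in inner nuclear spots and Kera in ganglion spots, without separation from the next region. These intervals cover counting error only. Some placements rest on very few UMIs in the highest region. These were Cilp (1), Col6a1 (2) and Timp1 (2) in myelin spots and Col5a1 and Col6a3 (1 each) in muscle spots. Kera (1) in ganglion spots and Col5a2 (3) in fibrous spots were others. How often each region was highest over all genes was not counted, so the numbers describe the 37 genes only.

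**Figure D2:**
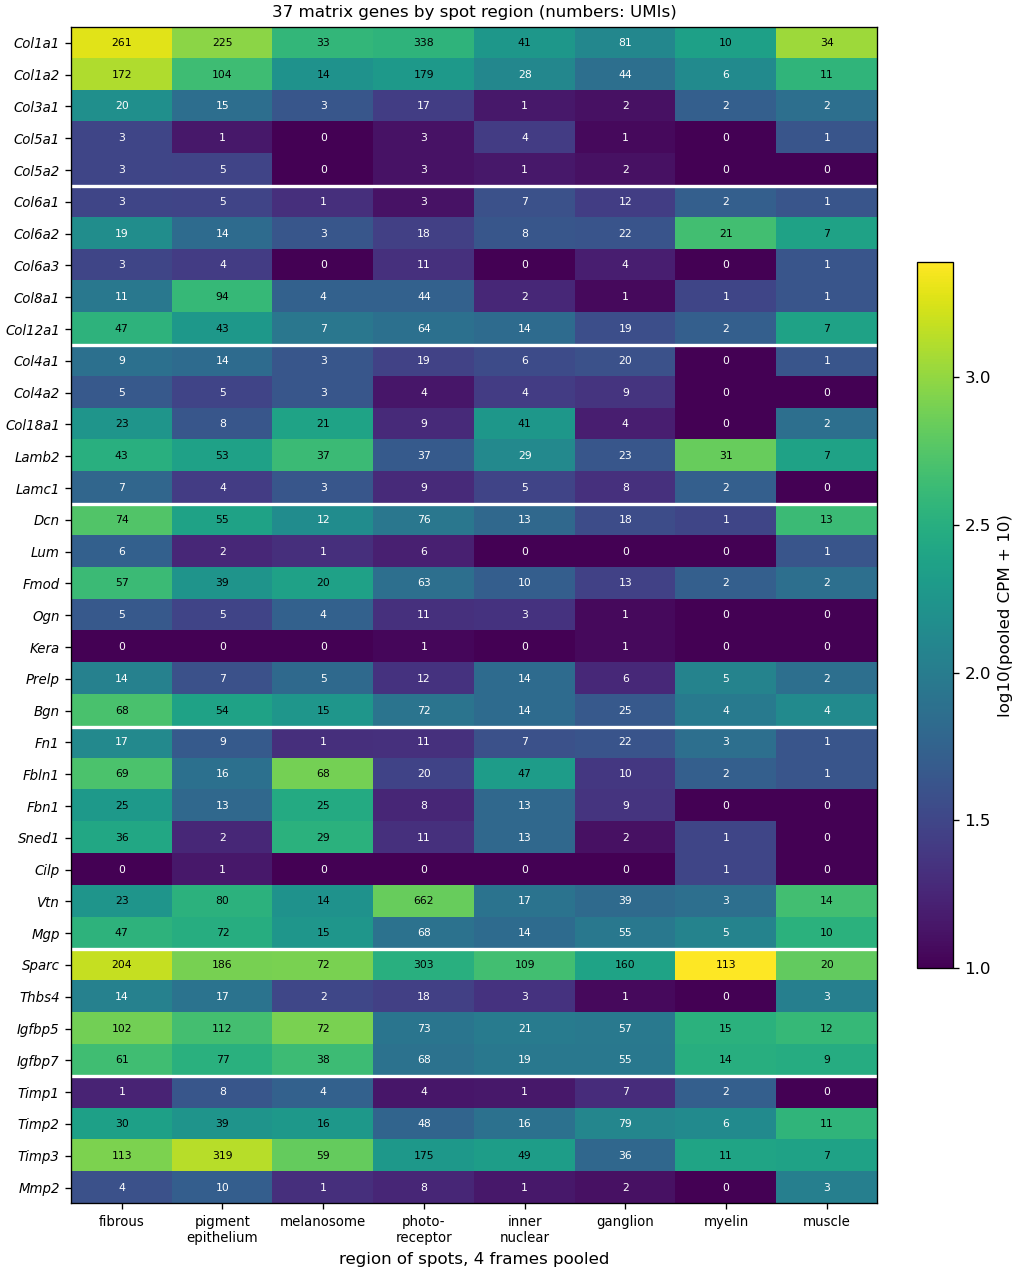
Level of each of the 37 genes (vertical) in 8 kinds of spots (horizontal) with frames pooled; colour is log10 of CPM plus 10, printed numbers are UMIs, and white lines part the classes. Brighter squares mark Col1a1 and Col1a2 in fibrous spots, Timp3 and Col8a1 in pigment epithelium spots, Vtn in photoreceptor spots (662 UMIs) and Sparc in myelin spots (113 UMIs).

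The first comparison asked which matrix genes differed between fibrous spots and neural retina on the same frames. Fibrous spots were higher for 20 of the 23 genes with enough counts to test and lower for 1, Vtn. Over all 3273 genes tested, 15.1% were called, 8.16% higher and 6.90% lower. The median log2 difference was 2.76 for the 23 genes and -0.22 over all genes tested (-0.34 with DESeq2). The other 14 genes did not pass the filter on low counts. In this and the later comparisons that filter admits genes through the group where they are high. The counts and medians therefore describe the tested genes and not the whole list. For fibrous spots they also follow a choice of spots by other matrix-related genes.

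All 3 tested fibrillar collagens were higher in fibrous spots. Col1a1, the alpha 1 chain of collagen I, stood at 1672, 1423, 2299 and 2166 CPM in fibrous spots of frames 1 to 4 and at 257, 205, 241 and 279 CPM in neural retina. The ranges did not overlap, and the log2 difference was 2.90 ± 0.24 (SD of the per-frame differences, n = 4; edgeR adjusted p = 1.08e-28). Its partner chain Col1a2 held 1474, 726, 1275 and 2079 CPM in fibrous spots against 102 to 156 CPM, a log2 difference of 3.27 ± 0.63 (edgeR adjusted p = 9.31e-28). Col3a1, which forms mixed fibrils with collagen I, held 283, 58.1, 53.9 and 433 CPM against 5.08 to 14.6 CPM, with frames 1 and 4 well above frames 2 and 3. Its log2 difference was 3.77 ± 1.63, on 20 UMIs in each group (edgeR adjusted p = 4.77e-10).

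Each of the 4 tested small leucine-rich proteoglycans was higher in fibrous spots, by 2.76 to 3.33 on the log2 scale. Fmod, fibromodulin, which guides collagen fibril growth, held 425, 348, 323 and 1040 CPM in fibrous spots and 33.0 to 66.7 CPM in neural retina. Frame 4 stood above the rest on 12 UMIs, and the groups did not overlap (log2 difference 3.33 ± 0.97, edgeR adjusted p = 5.04e-10). Dcn, decorin, which binds collagen fibrils and growth factors, held 425, 494, 701 and 260 CPM against 28.7 to 88.6 CPM (log2 difference 3.21 ± 0.93). Bgn, biglycan, a close relative of decorin, differed by 3.02 ± 1.01 and Prelp, which anchors matrix to basement membranes, by 2.76 ± 0.95. All 4 were higher in each of the 4 frames.

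Of the 6 tested glycoproteins, 5 were higher in fibrous spots. Sned1, a secreted glycoprotein of interstitial matrix, held 170, 87.1, 467 and 86.6 CPM there and 8.34 to 24.3 CPM in neural retina (log2 difference 3.83 ± 0.85, edgeR adjusted p = 6.46e-08). Fbn1, fibrillin-1, the core of microfibrils, and Fbln1, fibulin-1, which binds basement membranes and elastic fibres, each differed by 3.48. Fn1, fibronectin, differed by 2.54 ± 1.07, with 319 CPM in frame 2 and 53.9 to 86.6 CPM in the other fibrous sums. Mgp, matrix Gla protein, an inhibitor of calcification, had the smallest of the 5 differences, 2.21 ± 0.70.

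Vtn, vitronectin, a cell-adhesion glycoprotein, was the exception at 142, 87.1, 180 and 433 CPM in fibrous spots and 346 to 409 CPM in neural retina. Frames 1 to 3 were lower and frame 4 was not (log2 difference -1.14 ± 0.84, edgeR adjusted p = 0.0349). The call was lost without frame 1, 2 or 3 (edgeR adjusted p = 0.109, 0.156 and 0.141). With all regions in 1 fit the difference was 0.16 (edgeR adjusted p = 0.82). That fit weighs photoreceptor, inner nuclear and ganglion log levels equally, whereas the main comparison sums their UMIs. Its neural retina is therefore a different reference.

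Of the other tested genes outside the basement membrane class, all but Timp2 were called higher in fibrous spots. Among collagens VI and XII, Col12a1, which decorates collagen I fibrils, differed by 2.78 ± 0.47 and Col6a2, a chain of the beaded collagen VI filament, by 2.40 ± 0.98. Sparc, a collagen-binding matricellular protein, differed by 2.25 ± 0.61, Igfbp5 by 3.07 ± 0.79 and Igfbp7 by 2.57 ± 0.58, the last 2 being binding proteins of insulin-like growth factors. Timp3, a matrix-bound metalloproteinase inhibitor, was 2.48 ± 0.79 higher, while Timp2 missed the threshold at 1.39 ± 0.56 (edgeR adjusted p = 0.0596). Timp2 was called with DESeq2 (adjusted p = 0.0431), and by edgeR without the frame block (adjusted p = 0.0027), without frame 4, which is also the fit at 20 or more spots (0.0365), and with the joined pigment epithelium and melanosome list (0.0499).

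Of the 3 tested basement membrane genes 2 were higher. Lamb2, the laminin beta 2 chain, held 340, 0, 503 and 260 CPM in fibrous spots against 34.8 to 66.0 CPM in neural retina, so frame 2 had no UMI where the other 3 were high (log2 difference 2.36 ± 2.56, edgeR adjusted p = 3.18e-04). Col18a1, the source of endostatin, held 142, 87.1, 269 and 0 CPM against 11.1 to 48.2 CPM (log2 difference 2.52 ± 2.87, edgeR adjusted p = 5.65e-04). Col4a1, a chain of the collagen IV network, held 53.9 to 87.1 CPM against 17.7 to 29.5 CPM and did not pass (1.55 ± 0.22, edgeR adjusted p = 0.0823). Lamb2 lost its call without frame 1 or frame 3 (edgeR adjusted p = 0.0546 and 0.0943), Col18a1 without frame 3 (0.239), Mgp without frame 3 (0.0706) and Fn1 without frame 2 (0.174).

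Fibrous spots also carried other tissue. Their summed fibrous markers were 8.07 times the level over all spots (1 of 22 at 0), and the 9 melanosome markers were 3.85 times it (none at 0, 2252 to 12311 CPM between frames). Pooled, these were 6251 CPM of fibrous and 10436 CPM of melanosome markers. A spot named fibrous kept that name however high its melanosome, vascular or immune enrichment was. Vascular markers stood at 2.67 times (3 of 14 at 0, 1545 to 2685 CPM) and immune markers at 2.57 times (0 of 13 at 0). Blood markers stood at 2.50 times (1 of 5 at 0), Schwann cell markers at 1.94 times (2 of 6 at 0) and lens markers at 10.5 times on 9 UMIs (4 of 6 at 0). The part of these cells in the differences was not tested. In spots enriched for the fibrous markers and for no other list, taken at 5 or more spots per frame, 14 of the matrix genes could be tested, 7 were called higher and none lower, an alternative chosen after the data were seen. Over all 2583 genes tested in these spots, 21 were called. The calls of Timp3 (log2 difference 2.40, edgeR adjusted p = 0.0641), Prelp (2.75, 0.177), Igfbp5 (1.86, 0.252), Igfbp7 (1.88, 0.252), Mgp (0.85, 0.692) and Vtn (-0.80, 0.66) were lost there. Col1a1, Col1a2, Col12a1, Dcn, Fmod, Bgn and Sparc were the 7 called, at log2 differences of 2.11 to 3.08.

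Among 115 other matrix genes, 23 were tested in this comparison and 14 were higher and 1 lower in fibrous spots. The lowest p-values were those of Ccn2 (log2 difference 3.41), a matricellular growth factor modulator, Efemp1 (3.01), a fibulin, and Mfap2 (3.49), a microfibril protein. Impg2, a proteoglycan of the matrix between photoreceptors, was lower (-1.68).

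The second comparison asked the same of pigment epithelium spots, against the same neural retina sums, so the comparisons share these sums. Pigment epithelium spots were higher for 13 of 16 tested genes and lower for none. Over all 3614 genes tested, 14.1% were called, 7.30% higher and 6.83% lower. At an unadjusted p under 0.05 none of the 16 was lower either, and DESeq2 called none lower. The median log2 difference was 2.09 for the 16 genes and -0.14 over all genes tested, and 21 genes were not tested. Genes low in neural retina could enter only by being high in pigment epithelium spots. The absence of lower calls and the median thus hold for the tested genes only.

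Col8a1, a short-chain collagen of basement membranes including Bruch's membrane, had the largest difference. It held 399, 463, 381 and 84.9 CPM in frames 1 to 4 and 10.4 to 41.7 CPM in neural retina. All 4 frames were higher, frame 4 least, and the groups did not overlap (log2 difference 3.95 ± 1.17, edgeR adjusted p = 6.29e-17). Of its 192 UMIs, 94 fell in pigment epithelium spots, 11 in fibrous spots, 44 in photoreceptor spots and 1 in ganglion spots. The ratio of pigment epithelium to ganglion level was 270.4, with a counting interval of 47.4 to 10792.

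Timp3 had the smallest spread between frames of the 13 genes called higher. It held 1167, 1515, 1129 and 1317 CPM in pigment epithelium spots and 106 to 193 CPM in neural retina, with no overlap (log2 difference 3.39 ± 0.24, edgeR adjusted p = 8.53e-51). The gene Syn3 overlaps Timp3 in the annotation and had 354 UMIs, at 498 CPM in pigment epithelium spots, 321 in fibrous spots, 57.4 in photoreceptor spots and 29.1 in ganglion spots. Whether the counting used strand is not given in the sources used here, so reads of overlapping genes may not be separable.

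Igfbp5 at 1106, 339, 311 and 680 CPM and Igfbp7 at 369, 241, 339 and 595 CPM were also above every neural retina sum (log2 differences 2.83 ± 1.03 and 2.37 ± 0.75). Col1a1 held 1874, 963, 579 and 637 CPM in pigment epithelium spots, with frame 1 far above the rest (log2 difference 2.09 ± 0.81, edgeR adjusted p = 8.00e-19). Lamb2 held 338, 160, 325 and 42.5 CPM, higher in 3 of 4 frames (2.35 ± 1.54). Dcn differed by 2.23 ± 0.81, Bgn by 2.14 ± 1.42, Mgp by 2.10 ± 1.65, Fmod by 1.99 ± 0.82, Col1a2 by 1.78 ± 0.70 and Sparc by 1.53 ± 0.49. Col12a1 differed by 1.92 ± 1.03 and lost its call without frame 2 (edgeR adjusted p = 0.0534). In spots enriched for the pigment epithelium markers and for no other list, 9 of 15 tested genes were called higher and none lower. This count was not set against the share of all genes called in those spots. Bgn (log2 difference 0.94, edgeR adjusted p = 0.584), Mgp (1.41, 0.194), Fmod (1.75, 0.103) and Igfbp7 (1.67, 0.0595) lost their calls there. Fmod also lost it when spots were grouped by Leiden clustering (edgeR adjusted p = 0.207), and Fmod and Col12a1 with no filter on low counts (0.0714 and 0.0845).

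Vtn held 307, 285, 395 and 425 CPM in pigment epithelium spots, close to neural retina (log2 difference -0.01 ± 0.16, edgeR adjusted p = 0.985). It was 1.24 higher with all regions in 1 fit (edgeR adjusted p = 0.00248), where the kinds of retina spots have equal weight. Fbln1 at 0 to 123 CPM did not pass (0.82 ± 1.88, edgeR adjusted p = 0.45), and it was called at 3.32 (edgeR adjusted p = 2.81e-17) when melanosome markers were joined to the pigment epithelium list. Timp2 did not pass (1.15 ± 1.15, edgeR adjusted p = 0.0716) and was called without frame 4, without the frame block, with looser enrichment and with the joined list (edgeR adjusted p = 0.0312, 0.0174, 0.0179 and 0.00275). Pigment epithelium spots held the fibrous markers at 1.65 times the level over all spots (4 of 22 at 0, 722 to 2304 CPM between frames). Photoreceptor markers, of the spots where Vtn was highest in the retina, stood at 0.96 times that level (0 of 19 at 0, 27712 to 35550 CPM between frames), and at 0.43 times in fibrous spots. Blood markers stood at 2.67 times (1 of 5 at 0). Schwann cell markers stood at 2.65 times (3 of 6 at 0), melanosome markers at 2.53 times (0 of 9 at 0) and vascular markers at 1.79 times (0 of 14 at 0). Their part in the result was not tested.

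Of 22 other matrix genes tested here, 10 were higher and 2 lower. Spon1, a secreted adhesion protein (log2 difference 2.46), Col8a2, the partner chain of Col8a1 (3.54), and Ctsd, a lysosomal protease (2.13), had the lowest p-values among those higher. Sparcl1 (-2.12), a relative of Sparc, and Spock2 (-2.17), a proteoglycan of nervous tissue, were lower.

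**Figure D3:**
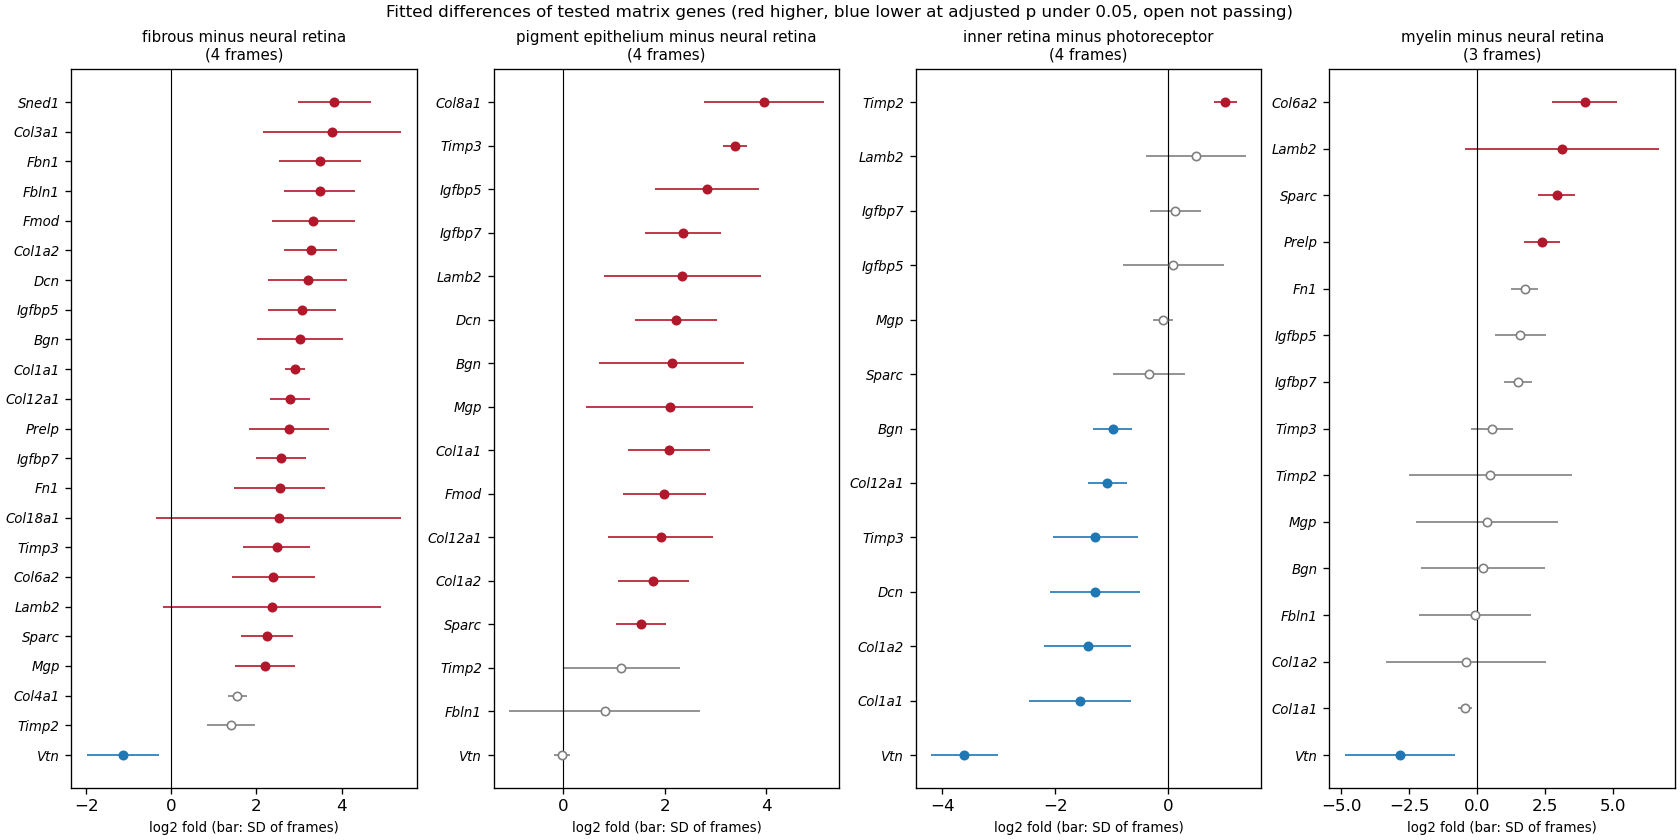
Fitted log2 difference of each tested matrix gene (point) with the SD of the per-frame differences (bar) in 4 comparisons; 0 means equal levels, red and blue points passed the edgeR threshold as higher and lower, and open points did not pass. Vtn is the lowest gene in each panel. In the pigment epithelium panel Timp3 (3.39 ± 0.24) has the shortest bar of the genes called higher, and Vtn, which did not pass, a shorter one (SD 0.16).

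Fibrous and pigment epithelium spots were then compared directly. Fibrous spots were higher for 4 of 13 tested genes and lower for 1, where 17.0% of all 511 genes tested were called, 8.22% higher and 8.81% lower. The median log2 difference of the 13 was 0.80, against 0.00 over all genes. Col1a2 was higher in all 4 frames by 1.53 ± 1.17 (edgeR adjusted p = 3.31e-06), and its groups, 726 to 2079 CPM and 212 to 707 CPM, did not overlap. Fmod differed by 1.31 ± 1.48, Col1a1 by 0.92 ± 0.98 and Sparc by 0.80 ± 0.90 (edgeR adjusted p = 0.0352, 0.00524 and 0.0289). Col1a1 and Sparc were higher in 3 of 4 frames and lower in frame 1.

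Timp3 was the gene lower in fibrous spots, at 652, 494, 1168 and 693 CPM against 1167, 1515, 1129 and 1317 CPM. Frame 3 went the other way, so the ranges overlapped (log2 difference -0.82 ± 0.65, edgeR adjusted p = 0.0284). Col8a1 was not tested here. Its fibrous sums held 0 to 113 CPM and were lower in 4 of 4 frames, though the groups overlapped. Fbln1, Sned1 and Prelp were not tested either. Their means in fibrous and pigment epithelium spots were 441 and 62.7 CPM, 203 and 5.76 CPM, and 118 and 33.3 CPM. They rested on 69 and 16, 36 and 2, and 14 and 7 UMIs. Each was higher in fibrous spots in 4 of 4 frames, without overlap. None of the 5 calls held under every alternative. Without the frame block, 2 genes were higher and 0 lower, and DESeq2 called 1 higher and 0 lower. Col1a2 lost its call without frame 4 (edgeR adjusted p = 0.0679), Col1a1 without frames 3 or 4 (0.425 and 0.304), and Fmod without frames 2, 3 or 4 (0.106, 0.0556 and 0.271). Sparc lost it without frames 2, 3 or 4 (0.0602, 0.685 and 0.322) and Timp3 without frames 1, 2 or 4 (0.0613, 0.483 and 0.224). Dcn, at 1.04 ± 0.87 (edgeR adjusted p = 0.0646), was called without frame 1 (0.0278). Of 4 other matrix genes tested, none was higher and Spon1 was lower (-1.06).

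**Figure D4:**
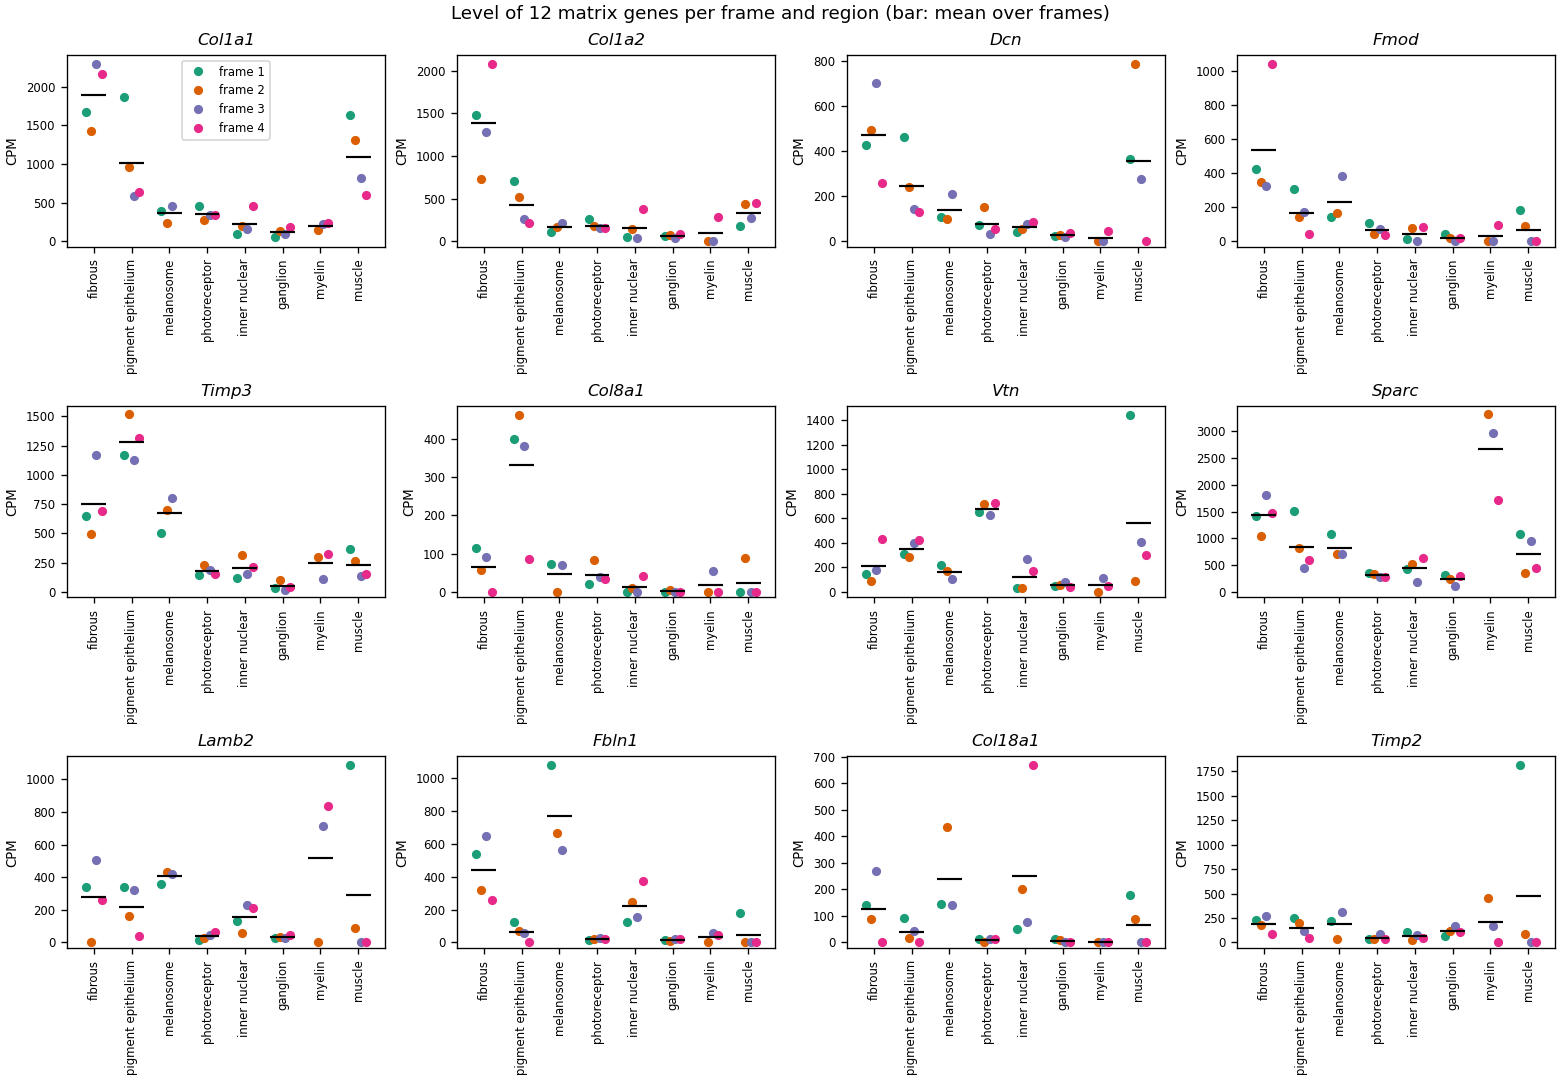
Level per frame in CPM of the genes on which the comparisons turn, by kind of spot, on linear axes; each point is 1 frame with at least 10 such spots and each line the mean over frames. Means of Col1a1 and Col1a2 are highest in fibrous spots, those of Timp3 and Col8a1 in pigment epithelium spots and that of Sparc in myelin spots, and the muscle point of Vtn at 1448 CPM is frame 1.

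Within the retina, inner retina spots (inner nuclear and ganglion together) were compared with photoreceptor spots. Of 13 tested matrix genes, 1 was higher in the inner retina and 7 were lower. Calls were common among all genes here: over all 3593 genes tested, 54.1% were called, 28.2% higher and 25.9% lower. The median log2 difference of the 13 was -0.98, against 0.01 over all genes.

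Vtn was the matrix gene of the photoreceptor spots. It held 655, 718, 626 and 722 CPM there, with frames within a narrow range, and 49.0, 54.9, 79.1 and 43.2 CPM in ganglion spots. Inner retina as a whole held 63.6 ± 28.6 CPM against 680.1 ± 47.4 CPM (SD, n = 4), with no overlap (log2 difference -3.61 ± 0.59, edgeR adjusted p = 8.17e-11). Of all 1123 Vtn UMIs, 662 (58.9%) fell in photoreceptor spots, and 42.9% of these spots held at least 1 Vtn UMI. The ratio of photoreceptor to myelin level was 10.5 with a counting interval of 3.57 to 50.9, on 3 UMIs in myelin spots.

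Timp2, an inhibitor that also takes part in activating Mmp2, was the gene higher in the inner retina. It held 70.0, 114, 164 and 105 CPM in ganglion spots and 37.8, 37.4, 83.9 and 33.7 CPM in photoreceptor spots. For the whole inner retina the levels were 106.0 ± 31.3 and 48.2 ± 23.9 CPM, and each frame was higher (log2 difference 1.01 ± 0.21, edgeR adjusted p = 0.00741).

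The other 6 genes lower in the inner retina were all called higher in both fibrous and pigment epithelium spots than in neural retina. Col1a1 held 349 ± 74.5 CPM in photoreceptor spots and 134 ± 63.8 CPM in the inner retina (log2 difference -1.55 ± 0.90, edgeR adjusted p = 4.88e-05). Col1a2 differed by -1.43 ± 0.77, Dcn by -1.29 ± 0.79, Timp3 by -1.29 ± 0.75, Col12a1 by -1.08 ± 0.35 and Bgn by -0.98 ± 0.35. Each was lower in 4 of 4 frames. Col12a1 lost its call without frame 1 (edgeR adjusted p = 0.0732) and Bgn without frame 2 or 3 (0.0917 and 0.0602), and DESeq2 called 4 genes lower. Photoreceptor spots held the pigment epithelium markers at 0.67 times the level over all spots, against 0.18 and 0.11 in inner nuclear and ganglion spots, a difference whose part in these values was not tested. Fibrous markers stood at 0.44, 0.61 and 0.42 times.

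Lamb2, Mgp, Sparc, Igfbp5 and Igfbp7 did not pass, with differences between -0.33 and 0.49. Among 16 other matrix genes tested, 5 were higher in the inner retina, led by the proteoglycans Spock1 (2.72) and Spock2 (4.11) and by Sparcl1 (3.41). Another 5 were lower, led by the interphotoreceptor proteoglycans Impg2 (-4.27) and Impg1 (-4.54) and by P4hb (-2.17), a subunit of the enzyme that hydroxylates collagen prolines.

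Myelin spots, marked by oligodendrocyte genes and present on 3 frames, were compared with neural retina. Of 15 tested matrix genes, 4 were higher and 1 was lower, where 11.3% of all 3123 genes tested were called, 5.06% higher and 6.24% lower. All genes together had a median log2 difference of -0.97 and the 15 genes 0.55, a median that the filter on low counts again limits to the tested genes. Of all called genes 44.8% were higher, a share that was 61.7% with upper-quartile scaling (all-gene median -0.54) and 33.8% with DESeq2 (-1.16), so changes are best read against these medians.

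Sparc led these spots. It held 3318, 2967 and 1725 CPM in frames 2 to 4 against 278 ± 62.1 CPM in neural retina (SD, n = 3), with every myelin sum above every retina sum (log2 difference 2.92 ± 0.69, edgeR adjusted p = 3.14e-07). Pooled, its level was 1.64 times that of fibrous spots, with a counting interval of 1.29 to 2.07. Col6a2 held 1508, 220 and 326 CPM against 25.7 ± 3.73 CPM, so frame 2 stood far above the others on 10 of 21 UMIs (log2 difference 3.96 ± 1.20, edgeR adjusted p = 1.10e-04).

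Lamb2 held 0, 714 and 839 CPM against 50.5 ± 15.6 CPM, with no UMI in frame 2 and high levels in frames 3 and 4 (log2 difference 3.13 ± 3.58, edgeR adjusted p = 0.00259). Prelp held 302, 54.9 and 93.2 CPM on 5 UMIs (log2 difference 2.38 ± 0.66, edgeR adjusted p = 0.0441). Vtn was lower, at 0, 110 and 46.6 CPM on 3 UMIs (log2 difference -2.84 ± 2.02, edgeR adjusted p = 0.0349). Col1a1 at 151, 220 and 233 CPM and Col1a2 at 0, 0 and 280 CPM did not pass (edgeR adjusted p = 0.751 and 0.818).

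With 3 frames, each of these 5 calls was lost on leaving out at least 1 of them. Sparc was lost without frame 3 (log2 difference 2.38, edgeR adjusted p = 0.172), Col6a2 without frame 4 (3.95, 0.0671) and Lamb2 without frame 3 or 4 (0.536 and 0.405). Prelp was lost without frame 2, 3 or 4 (0.24, 0.256 and 0.39), as was Vtn (0.0553, 0.376 and 0.382). Without the frame block, Igfbp5 and Igfbp7 were called as well (edgeR adjusted p = 0.0145 and 0.0272). Myelin spots held fibrous markers at 2.76 times the level over all spots (10 of 22 at 0, 1865 to 2473 CPM). Schwann cell markers stood at 3.54 times on 8 UMIs (3 of 6 at 0) and melanosome markers at 0.08 times (6 of 9 at 0). Their part in the result was not tested. Of 16 other matrix genes tested, Igfbp6 (3.49), Plod1 (3.39), a collagen lysyl hydroxylase, and Ltbp1 (2.41), which stores latent TGF-beta, were higher and Impg2 (-3.85) was lower.

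Muscle spots held 31018 UMIs in all, and 2 of the 37 genes could be tested against fibrous spots. Neither was called, where 14.2% of all 134 genes tested were, 8.96% higher and 5.22% lower. Of the called genes 63.2% were higher, and 50.0% with upper-quartile scaling. Col1a1 held 1629, 1310, 820 and 595 CPM in muscle spots (log2 difference -0.71 ± 0.87, edgeR adjusted p = 0.253). Sparc held 1086, 349, 957 and 446 CPM (log2 difference -1.03 ± 0.54, edgeR adjusted p = 0.163, unadjusted p = 0.0365), lower in 4 of 4 frames, and was the 1 gene at an unadjusted p under 0.05. DESeq2 called 0 of them. Fibrous markers stood in muscle spots at 3.12 times the level over all spots (7 of 22 at 0, 446 to 4888 CPM between frames), and their part was not tested.

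Several genes of the fibrous spots were also present in melanosome spots, for which no test was made. Fbln1 held 1078, 668 and 560 CPM in melanosome spots of frames 1 to 3 and 539, 319, 647 and 260 CPM in fibrous spots. Its pooled level in melanosome spots was 11.4 times that of pigment epithelium spots (counting interval 6.54 to 21.1). Sned1 held 359, 267 and 350 CPM and had 2 UMIs in all 398 pigment epithelium spots, a ratio of 38.9 with an interval of 9.84 to 336. Lamb2 at 359, 434 and 420 CPM, Fbn1 at 288, 334 and 175 CPM and Col18a1 at 144, 434 and 140 CPM were also present in each of the 3 frames. Col1a1, by contrast, held 395, 234 and 455 CPM there, below every fibrous sum.

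Fibrous spots were split by whether they held any UMI of the 9 melanosome markers, a split chosen after these values were seen. The 35 spots without one held 23069 UMIs and the 105 spots with one 113868. Sned1 had 0 UMIs in the spots without and 36 in those with (316 CPM), at least 2.43-fold higher against a floor of 3 UMIs, with counting intervals that lie apart. Col18a1 had 0 and 23 UMIs (202 CPM), at least 1.55-fold higher against the same floor, but its intervals overlapped (0 to 160 and 128 to 303 CPM). Fbln1 had 1 and 68 UMIs, 43.3 and 597 CPM, with counting intervals of 1.10 to 242 and 464 to 757 CPM that lie apart.

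Other genes of the fibrous spots had overlapping intervals. Col1a1 stood at 2167 CPM in spots without and 1853 CPM in spots with a melanosome UMI, and Dcn at 607 and 527 CPM. Fbn1 (130 and 193 CPM), Lamb2 (260 and 325 CPM) and Timp3 (520 and 887 CPM) overlapped as well. Spots without such a UMI also held fewer UMIs of all genes, and the part of depth was not tested.

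Inner nuclear spots were split in the same way. The 104 spots without a melanosome UMI held 76552 UMIs and the 103 with one 161225. Col18a1 had 1 UMI in the first and 40 in the second (13.1 and 248 CPM), Fbln1 1 and 46 (13.1 and 285 CPM) and Lamb2 0 and 29 (180 CPM, at least 4.59-fold higher against the floor of 3 UMIs), with intervals that lie apart for all 3. Sned1, at 1 and 12 UMIs (13.1 and 74.4 CPM), had overlapping intervals. Col1a1 rested on 3 and 38 UMIs, 39.2 and 236 CPM, with intervals that lie apart. In pigment epithelium spots Timp3 (1160 and 1366 CPM) and Col1a1 (675 and 990 CPM) had overlapping intervals, and Sned1 had 1 UMI in each set. The inner nuclear level of Col18a1, 50.8, 201, 76.9 and 669 CPM in frames 1 to 4 with 2 frames high, is given with that split in view. Trpm1, a gene of the inner nuclear marker list, stood at 796 CPM in melanosome spots, 8.63 times its level over all spots. Some inner nuclear spots may thus have been named through melanosome-bearing tissue, which was not tested.

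**Figure D5:**
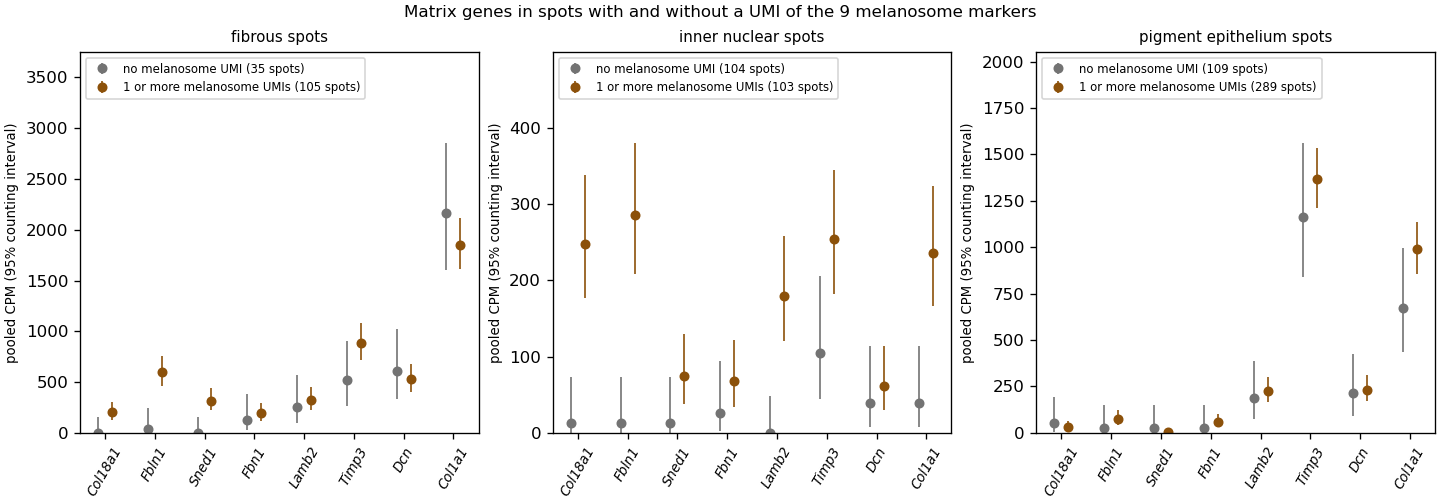
Pooled level in CPM of 8 matrix genes in fibrous, inner nuclear and pigment epithelium spots, split by the presence of at least 1 UMI of 9 melanosome markers, on linear axes that start at 0; bars through points are 95% Poisson intervals. In fibrous spots the intervals of Fbln1 and Sned1 lie apart, while those of Col18a1, Col1a1 and Dcn overlap.

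Genes with few UMIs could be described by region only coarsely. Kera, keratocan, a proteoglycan of the cornea, had 2 UMIs in all, both in frame 1. Cilp, a cartilage glycoprotein, had 4. Fibrous spots held none of either, which at 136937 UMIs allows up to 21.9 CPM. Lum, lumican, had 25 UMIs, of which 6 lay in fibrous spots and 6 in photoreceptor spots, a level ratio of 7.12 with a counting interval of 1.90 to 26.6. Ogn, osteoglycin, with 50 UMIs held 5 in fibrous and 11 in photoreceptor spots.

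The minor fibrillar chains Col5a1 and Col5a2, which start collagen I fibrils, had 18 and 20 UMIs, 3 of each in fibrous spots. Col6a1 and Col6a3, partners of Col6a2 in collagen VI, had 45 and 36 UMIs against 179 for Col6a2, with 3 each in fibrous spots. Col4a2 and Lamc1, the laminin gamma 1 chain, had 54 and 55 UMIs with 5 and 7 in fibrous spots. Thbs4, a matricellular thrombospondin, had 74 UMIs, with 17 in pigment epithelium spots, 14 in fibrous spots (170, 0, 144 and 0 CPM by frame) and 1 in ganglion spots. Timp1 and Mmp2, a metalloproteinase that cleaves denatured collagen and collagen IV, had 50 and 53 UMIs. Timp1 had none in frame 4, and it overlaps Syn1, a neuronal gene with 169 UMIs.

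Some of these genes are neighbours in the mm10 build. Dcn, Lum and Kera follow each other on chromosome 10 with gaps of 47338 and 34259 bases and differ in total UMIs (373, 25 and 2). Col3a1 and Col5a2 lie 24625 bases apart on chromosome 1 with 90 and 20 UMIs, and Prelp and Fmod 107152 bases apart on that chromosome with 95 and 257. Col6a2 and Col6a1 lie 85162 bases apart on chromosome 10. Col4a1 and Col4a2 overlap at their starts on chromosome 8, at 11198423 to 11312889 and 11312805 to 11449287, and their reads in the overlap may not be separable. Igfbp7 overlaps Polr2b, which had 74 UMIs.

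Across 27 sums per frame and region, the 17 genes with at least 100 UMIs were ordered by the likeness of their log2 levels to Col1a1, as a description, since these sums share frames and depth. The highest Pearson correlations were those of Col1a2 (0.84), Dcn (0.82) and Col12a1 (0.78), and the lowest those of Lamb2 (0.31), Timp2 (0.25) and Col6a2 (0.10). Sparc was most like Col6a2 (0.68), and Timp3 most like Col1a1 (0.74), Bgn (0.71) and Col8a1 (0.70).

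Over whole frames, all spots together, the 37 genes summed to 3408, 3264, 3647 and 2699 CPM in frames 1 to 4. Frame 4 was lowest, and it also had the fewest fibrous spots, 17 against 30 to 51. Col1a1 ranged from 331 to 426 CPM, Vtn from 298 to 348 CPM and Sparc from 418 to 560 CPM between frames. Timp3 ranged from 190 to 352 CPM, with frames 2 and 3 above frames 1 and 4, and Col8a1 from 28.2 to 85.3 CPM in the same arrangement. Frames 2 and 3 also had more pigment epithelium spots, 148 and 105, than frames 1 and 4, with 81 and 64.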

How the data were processed

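The values are UMI counts per gene and spot that the authors deposited for 4 frames. They were made with Space Ranger 2.0.0, per the file headers, on mm10, per the submitters' processing notes; aligner settings, annotation and strand handling: not given in the sources used here. Depth per frame stands in the report and sets the Poisson intervals and 3-UMI floors, which cover counting error only.

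Counts of spots with a region's markers were summed per frame and region, and regions with at least 10 spots on at least 3 frames were compared. edgeR 4.0.16 (R 4.3.3) ran its robust quasi-likelihood test with TMM, filterByExpr at a minimum count of 10, frame as a block and Benjamini-Hochberg adjustment over all genes tested, limit 0.05. Marker genes were left out of tests and library sizes. Levels are CPM, UMIs per 1000000. An unpaired SD follows each mean, and the SD beside a log2 difference is that of per-frame differences. Both regions of a pair come from one frame; same-frame sums deviated together with correlations of 0.03 to 0.27 over genes. DESeq2 1.42.0, other scalings, filters and region rules and leaving out each frame were alternatives. Scripts were tested on simulated data.

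All 37 genes are given by class, with the genes of largest and smallest difference; of the other matrix genes, the 3 with the lowest p-values in each direction. The genes, classes and lists were chosen with earlier results of these data known. Intronic or exonic origin of reads, protein sequences and spot positions were not used here.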

Additional observations from a re-analysis of the deposited data

Results flagged for a closer look

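In 162 sets of 4 frames (42 over whole frames and 120 within regions), 10 had a frame that stood apart from the other 3 by more than Dixon's 95% limit, where chance gives about 1 in 20. Over whole frames, Col6a3 was highest in frame 1 at 21.2 CPM (5.65 to 7.50 in the others), Sned1 in frame 3 at 65.5 CPM (23.4 to 29.7) and Igfbp7 in frame 3 at 215.7 CPM (139 to 145). The small leucine-rich proteoglycan sum was lowest in frame 4 at 222.5 CPM (339 to 360). In fibrous spots Fmod was highest in frame 4 at 1039.5 CPM (323 to 425) on 12 UMIs.

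In photoreceptor spots Igfbp7 at 114 CPM (52.3 to 54.6) and Timp2 at 83.9 CPM (33.7 to 37.8) were highest in frame 3, and the fibrillar collagen sum was highest in frame 1 at 752 CPM (464 to 507). The basement membrane sum of ganglion spots was lowest in frame 3 at 79.1 CPM (96.1 to 98.7). The protease and inhibitor sum of muscle spots was highest in frame 1 at 2353 CPM (149 to 437), on 13 of 21 UMIs. The causes were not tested.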

How the results depend on the processing

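Called genes were counted as keeping their call if they passed under every alternative in which they were tested. These were 11 of 21 (fibrous against neural retina), 8 of 13 (pigment epithelium against neural retina) and 0 of 5 (fibrous against pigment epithelium). For inner retina against photoreceptor they were 5 of 8, and for myelin against neural retina 0 of 5. An alternative in which a gene was not tested could not cost it the call. Among the 11, Col3a1, Fbln1, Fbn1 and Sned1 were tested in 12, 15, 14 and 13 alternatives, against 16 for Col1a1. None of them was tested in spots of 1 list, so their calls were not checked there. Among the 5, Timp2 was tested in 17 alternatives, against 18 for Vtn. Vtn changed sign with all regions in 1 fit, to 0.16 for fibrous and 1.24 for pigment epithelium against neural retina. That fit gives photoreceptor, inner nuclear and ganglion spots equal weight, so its neural retina is not the summed one of the main comparisons. For fibrous against neural retina (20 higher, 1 lower), the lower count was 0 with all regions in 1 fit and with melanosome markers joined to the pigment epithelium, and the counts were 7 and 0 in spots of 1 marker list at 5 or more spots, chosen after seeing the data; leaving out frames gave 17 to 21 higher and 0 to 1 lower. Pigment epithelium against neural retina gave 12 to 14 higher and 0 lower without single frames.

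For fibrous against pigment epithelium (4 higher, 1 lower), the counts were 1 and 0 with DESeq2, 2 and 0 with no replicate block, 1 and 0 with stricter enrichment, 2 and 2 with looser enrichment, and 0 and 0 in spots of 1 list at 5 or more spots. All regions in 1 fit gave 2 higher, at least 20 spots 1 higher and the joined list 0 lower; without single frames the ranges were 1 to 6 higher and 0 to 1 lower. For inner retina against photoreceptor (1 higher, 7 lower), DESeq2 and both fits on spots of 1 list gave 4 lower, no filter 3 higher and looser enrichment 2 higher; without single frames 1 to 2 were higher and 5 to 7 lower. For myelin (4 higher, 1 lower), upper-quartile scaling and all regions in 1 fit gave 0 lower and no filter 2 higher; without single frames 1 to 3 were higher and 0 lower. For muscle against fibrous (0 and 0), no filter gave 1 lower and all regions in 1 fit 3 lower, and leaving out frames 0 and 0. The no-block fit, which drops the pairing by frame, moved no other count by more than 1.5 times. The causes were not tested.

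Summed levels moved by more than the spread between frames for ganglion spots under stricter enrichment (1086 CPM against 1226), for spots of 1 list (fibrous 9397, photoreceptor 2095 and neural retina 1775 CPM) and for Leiden clusters (photoreceptor 2969, ganglion 1530, neural retina 2384 and myelin 5010 CPM). The sum over whole frames was 3123 to 3439 CPM without single frames. Leiden clusters gave no fibrous cluster, so its comparisons were not run there, nor were those of fibrous spots of 1 list at 10 or more spots or muscle against fibrous at 20 or more. Muscle, myelin and fibrous spots hold 31018 to 136937 UMIs, which limits genes under about 20 UMIs to intervals.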
